A study of Homo sapiens with 12 samples.

Results

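The data concern 10 genes of the BMP and TGF-beta signalling circuit in SZ95 sebocytes, a line of human sebaceous gland cells immortalised in culture: the inhibitor of DNA binding genes ID1, ID2, ID3 and ID4, the inhibitory SMAD genes SMAD6 and SMAD7, and the ligand genes BMP2, BMP4, TGFB1 and TGFB2. They were taken by gene name from the deposited expression tables and joined by gene identifier. All 10 were found among the 60630 identifiers that both tables hold. The 12 libraries fall into 4 groups of 3, called biological replicates by the submitters: cells given LA, cells given LA and RVT, cells given PGN, and cells given PGN and RVT. RVT is resveratrol, a plant polyphenol, per the series title, while the labels leave LA and PGN as abbreviations, taken here to mean linoleic acid, a lipid load, and peptidoglycan, a bacterial wall component. There is no group without LA or PGN among the labels, and no dose or time of treatment is given there. The 10 names were chosen by function with the TPM differences between RVT and control libraries already known from these same contrasts. Their values, fold changes and p-values below are therefore a description and not independent evidence. Although the submitters call them biological replicates, nothing states that they came from separate cultures. The p-values therefore reflect only how these 3 libraries per group vary, and how much of that spread is technical is not known. All values come from bulk RNA, in which fewer cells with a transcript and less transcript per cell cannot be told apart.

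BMP and TGF-beta ligands are secreted dimers that bind pairs of serine/threonine kinase receptors. The receptors phosphorylate SMAD proteins, BMP receptors mainly SMAD1, SMAD5 and SMAD9 and TGF-beta receptors mainly SMAD2 and SMAD3, and these enter the nucleus with SMAD4. ID1, ID2 and ID3 are classical BMP target genes. Their products are helix-loop-helix proteins without a DNA-binding region that hold E proteins away from DNA, and they are known for keeping epithelial cells undifferentiated and dividing. SMAD6 and SMAD7 are induced by the same signals and block the receptors, which closes a feedback loop.

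The stretches upstream of ID1, ID2 and ID3 are shown because these genes carry the main pattern, that of TGFB2 because it was the ligand gene called lower, and that of SMAD6 because it holds a SMAD palindrome. They are the 250 bases before the RefSeq transcription start, on the strand of the gene, from RefSeq on GRCh38.p14. This start can differ from the edge of the GENCODE gene span printed further on. The ID2 and ID3 windows lie within those spans, and the TGFB2 window ends before its span begins. ID1 is read from chr20:31605039-31605288 on the plus strand, ID2 from chr2:8681806-8682055 on the plus strand and ID3 from chr1:23559502-23559751 on the minus strand. TGFB2 is read from chr1:218345086-218345335 on the plus strand and SMAD6 from chr15:66701986-66702235 on the plus strand. Capitals mark matches to the letters searched. On both strands these were CAGAC (a core SMAD-binding element), GTCTAGAC (a SMAD palindrome), GGCGCC (a GC-rich SMAD element), CCAAT and TGACTCA (an AP-1 element). TATAAA was searched on the printed strand. GTCTAGAC itself does not contain CAGAC on either strand.
ID1: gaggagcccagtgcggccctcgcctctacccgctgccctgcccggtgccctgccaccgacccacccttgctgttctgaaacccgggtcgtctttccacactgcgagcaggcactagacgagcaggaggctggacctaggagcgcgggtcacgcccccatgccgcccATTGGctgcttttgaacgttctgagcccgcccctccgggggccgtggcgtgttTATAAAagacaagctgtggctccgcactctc
ID2: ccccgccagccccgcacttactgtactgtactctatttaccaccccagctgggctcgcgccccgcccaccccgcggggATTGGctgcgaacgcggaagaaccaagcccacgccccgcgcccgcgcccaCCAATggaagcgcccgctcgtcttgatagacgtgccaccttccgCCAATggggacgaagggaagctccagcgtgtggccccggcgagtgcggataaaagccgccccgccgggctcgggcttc
ID3: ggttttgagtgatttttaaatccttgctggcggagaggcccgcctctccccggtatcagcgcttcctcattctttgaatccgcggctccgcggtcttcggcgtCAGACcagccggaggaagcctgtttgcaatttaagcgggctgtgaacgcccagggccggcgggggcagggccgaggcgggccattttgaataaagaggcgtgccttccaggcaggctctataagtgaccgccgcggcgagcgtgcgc
TGFB2: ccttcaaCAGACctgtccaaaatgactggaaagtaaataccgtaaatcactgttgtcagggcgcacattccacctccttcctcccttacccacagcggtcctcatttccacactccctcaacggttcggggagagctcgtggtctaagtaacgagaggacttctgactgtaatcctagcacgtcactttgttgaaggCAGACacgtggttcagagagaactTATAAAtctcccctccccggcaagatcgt
SMAD6: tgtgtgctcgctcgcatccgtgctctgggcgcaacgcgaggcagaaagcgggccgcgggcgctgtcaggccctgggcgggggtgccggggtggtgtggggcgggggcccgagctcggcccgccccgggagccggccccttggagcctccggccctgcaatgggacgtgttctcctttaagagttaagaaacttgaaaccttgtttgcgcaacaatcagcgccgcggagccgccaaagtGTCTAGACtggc
In ID1 the capitals are 1 CCAAT match, read on the other strand, and 1 TATAAA match that begins 31 bases before the start. ID2 holds 3 CCAAT matches. ID3 holds 1 CAGAC match, which begins 147 bases before the start. TGFB2 holds 2 CAGAC matches and a TATAAA match. SMAD6 holds GTCTAGAC, which begins 12 bases before the start. Of 35116 RefSeq promoter windows of this length, 38% held CAGAC, 32% CCAAT, 16.4% GGCGCC, 6.8% TATAAA, 4.2% TGACTCA and 0.182% GTCTAGAC. Windows of 9 of the 10 genes were found. GGCGCC was in 1 of the 13 windows of these genes, a window of BMP4, and TGACTCA in none. CAGAC was also in windows of SMAD7 and BMP4, which were not called in either arm, and of ID4, which was not tested. A match describes letters and not a bound site, and the BMP-responsive elements known for ID1 lie further upstream than this window.

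The ID genes were read first, as classical BMP target genes, and BMP or TGF-beta signalling itself was not measured. With RVT, ID1 and ID3 were lower under LA and higher under PGN, and ID2 was higher under PGN. Expression is given in TPM, reads scaled to transcript length and to the library's total, so levels of different genes can be set side by side. The log2 fold changes are differences in log2(TPM + 1), with RVT minus without, with the standard error (SE) of a limma fit over all genes. A gene is called at an adjusted p under 0.05. ID1 (ENSG00000125968, chromosome 20, 31605283 to 31606515 on GRCh38 in GENCODE 29) was the most abundant of the family in every library.

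The LA libraries had 497, 513 and 502 TPM of ID1, and those with LA and RVT had 410, 392 and 414 TPM. All 3 RVT libraries lay below all 3 LA libraries. The mean fell by 19.6%, from 504 ± 8.11 to 405 ± 11.6 TPM (SD, n = 3 per group), a log2 fold change of -0.31 ± 0.028 (SE, limma adjusted p = 0.000990). In the PGN arm ID1 stood at 254, 248 and 236 TPM without RVT and at 299.96, 279.98 and 272 TPM with it. Here the RVT libraries were the higher ones, again without overlap. The mean rose from 246 ± 9.28 to 284 ± 14.5 TPM (log2 fold change 0.21 ± 0.050, limma adjusted p = 0.0347). This smaller rise was not called without PGN replicate 2 (adjusted p = 0.0907), PGN replicate 3 (0.0836) or PGN+RVT replicates 1 (0.115), 2 (0.0845) and 3 (0.0541). It was also not called with library medians equalised (log2 fold change 0.15, adjusted p = 0.128) or without a filter (adjusted p = 0.0849).

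ID3 (ENSG00000117318, chromosome 1, 23557918 to 23559794), the second most abundant, followed ID1 under LA. Its levels were 183, 176 and 190.3 TPM with LA and 140.2, 154 and 141 TPM with LA and RVT. The groups did not overlap, and the mean fell by 21.0% (log2 fold change -0.34 ± 0.047, limma adjusted p = 0.00525). With PGN the levels were 96.0, 94.7 and 102 TPM, and with PGN and RVT 146, 149 and 148 TPM. The 3 RVT libraries lay close together and well above the others. The mean rose 1.51-fold, from 97.6 ± 3.91 to 148 ± 1.37 TPM (log2 fold change 0.59 ± 0.044, limma adjusted p = 0.000447). The ID3 calls in both arms held under every alternative tried.

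ID2 (ENSG00000115738, chromosome 2, 8678845 to 8684453) had the largest log2 fold change of the 9 genes tested. With PGN it stood at 10.03, 11.3 and 8.03 TPM, and with PGN and RVT at 21.9, 24.4 and 25.9 TPM. Every RVT library was above every PGN library, and the mean rose 2.46-fold (log2 fold change 1.23 ± 0.12, limma adjusted p = 0.00131). Under LA the groups overlapped, at 26.9, 20.8 and 22.2 TPM without RVT and 20.7, 28.3 and 25.7 TPM with it. The log2 fold change there was 0.092 (95% interval -0.23 to 0.41, limma adjusted p = 0.700). ID4 (ENSG00000172201, chromosome 6) was between 0.0200 and 0.25 TPM in the 12 libraries, below the filter of a mean of 1 TPM, and was not tested.

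Summed over the 4 genes, ID transcripts came to 711 ± 3.97 TPM with LA and 575 ± 4.99 TPM with LA and RVT (SD, n = 3 each). In the PGN arm the sums were 353 ± 7.17 TPM without RVT and 456 ± 11.2 TPM with it. ID1 held 70.9% ± 1.1 of the sum with LA and 70.4% ± 1.90 with LA and RVT, a difference smaller than the spread between replicates. The ID2 share there was 3.28% ± 0.465 without RVT and 4.33% ± 0.658 with it, and the ID3 share 25.8% ± 0.891 and 25.2% ± 1.39. Both overlapped between the LA groups. In the PGN arm the ID1 share was 69.6% ± 1.2 without RVT and 62.3% ± 1.65 with it, while the ID2 share went from 2.77% ± 0.437 to 5.29% ± 0.572 and the ID3 share from 27.6% ± 1.60 to 32.4% ± 1.07. The PGN groups did not overlap for any of these 3 shares. The ratio of ID1 to ID3 was 2.53 ± 0.185 with PGN and 1.92 ± 0.116 with PGN and RVT, against 2.75 ± 0.138 and 2.80 ± 0.222 in the LA arm. Levels in the LA and PGN arms are set side by side only, because the 2 tables were made separately.

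**Figure D1:**
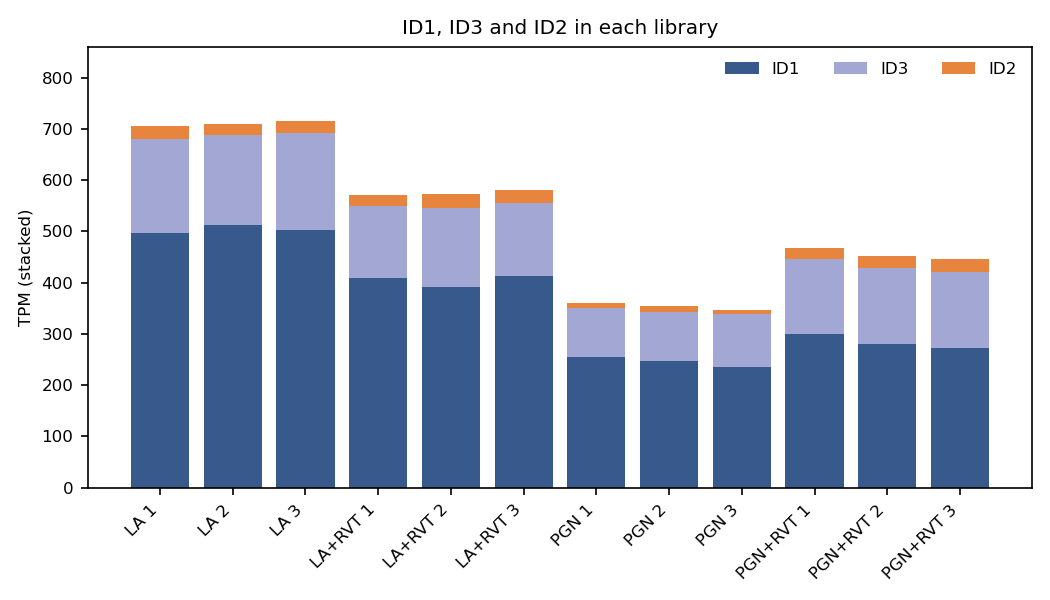
Stacked TPM of ID1, ID3 and ID2 (vertical axis) in each of the 12 libraries (horizontal axis, by group and replicate). The stacks are lower with RVT under LA (575 against 711 TPM on average) and higher with RVT under PGN (456 against 353 TPM).

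The inhibitory SMAD genes were not called in either arm. SMAD7 (ENSG00000101665, chromosome 18, 48919853 to 48952052), which blocks both BMP and TGF-beta receptors, stood at 7.62, 6.47 and 7.75 TPM with LA and 7.46, 6.91 and 7.06 TPM with LA and RVT. With PGN it stood at 9.95, 9.45 and 10.4 TPM and with PGN and RVT at 10.4, 10.3 and 7.97 TPM. The groups overlapped in both arms, and the log2 fold changes were -0.021 under LA (95% interval -0.24 to 0.20, limma adjusted p = 0.907) and -0.058 under PGN (-0.32 to 0.20, limma adjusted p = 0.764). SMAD6 (ENSG00000137834, chromosome 15), which acts mainly on BMP receptors, was close to the 1 TPM filter. Its levels were 1.48, 1.36 and 1.26 TPM with LA, 1.59, 2.40 and 1.09 TPM with LA and RVT, 0.83, 1.03 and 1.0 TPM with PGN, and 1.22, 1.76 and 1.69 TPM with PGN and RVT. The PGN groups did not overlap, but the log2 fold change of 0.38 had a wide interval (-0.021 to 0.79, limma adjusted p = 0.182). Under LA it was 0.16 (-0.34 to 0.66, limma adjusted p = 0.663).

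Of the ligand genes, TGFB1 rose with RVT in both arms and TGFB2 fell in the PGN arm. TGFB1 (ENSG00000105329, chromosome 19, 41301587 to 41353911) encodes the widespread isoform of TGF-beta. It stood at 14.2, 15.6 and 14.3 TPM with LA and 21.2, 21.3 and 20.4 TPM with LA and RVT, without overlap (log2 fold change 0.49 ± 0.059, limma adjusted p = 0.00318). With PGN it stood at 16.4, 15.2 and 16.2 TPM and with PGN and RVT at 19.8, 23.2 and 20.7 TPM, again without overlap (log2 fold change 0.39 ± 0.078, limma adjusted p = 0.0169). The PGN call was lost without PGN replicate 2 (adjusted p = 0.0614), PGN+RVT replicate 2 (0.0524) or PGN+RVT replicate 3 (0.0505).

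TGFB2 (ENSG00000092969, chromosome 1, 218346235 to 218444619), a second isoform, stood at 28.6, 21.5 and 19.3 TPM with PGN and at 12.9, 11.1 and 13.3 TPM with PGN and RVT. PGN replicate 1 was the highest library, and the groups did not overlap. The mean fell by 46.2%, from 23.1 ± 4.88 to 12.5 ± 1.18 TPM (log2 fold change -0.83 ± 0.14, limma adjusted p = 0.0110), a call that held under every alternative tried. Under LA it stood at 5.30, 7.08 and 6.61 TPM and with RVT at 5.02, 4.89 and 5.51 TPM, with overlap (log2 fold change -0.25, 95% interval -0.53 to 0.032, limma adjusted p = 0.211). The ratio of TGFB1 to TGFB2 was 2.35 ± 0.289 with LA and 4.09 ± 0.342 with LA and RVT. In the PGN arm it was 0.706 ± 0.132 without RVT, where TGFB2 was the more abundant isoform, and 1.73 ± 0.315 with RVT, where TGFB1 was.

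The BMP ligand genes were low in all groups. BMP2 (ENSG00000125845, chromosome 20, 6767664 to 6780280) stood at 1.21, 1.59 and 1.62 TPM with LA and 1.94, 2.06 and 1.93 TPM with LA and RVT. With PGN it stood at 4.24, 4.12 and 3.39 TPM and with PGN and RVT at 2.63, 2.59 and 2.84 TPM. The groups did not overlap in either arm, yet neither difference was called (log2 fold change 0.27, limma adjusted p = 0.263 under LA, and -0.41, adjusted p = 0.0617 under PGN). The PGN difference was called with library medians equalised (-0.47, adjusted p = 0.0373). BMP4 (ENSG00000125378, chromosome 14, 53949736 to 53958761) stood at 1.23, 1.29 and 1.06 TPM with LA, 1.95, 1.94 and 1.40 TPM with LA and RVT, 1.2, 0.79 and 1.41 TPM with PGN, and 1.48, 1.63 and 1.61 TPM with PGN and RVT. Its RVT libraries were the higher ones in both arms, without a call (limma adjusted p = 0.227 and 0.330). The ratio of BMP2 to BMP4 was 3.72 ± 1.41 with PGN and 1.71 ± 0.105 with PGN and RVT.

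**Figure D2:**
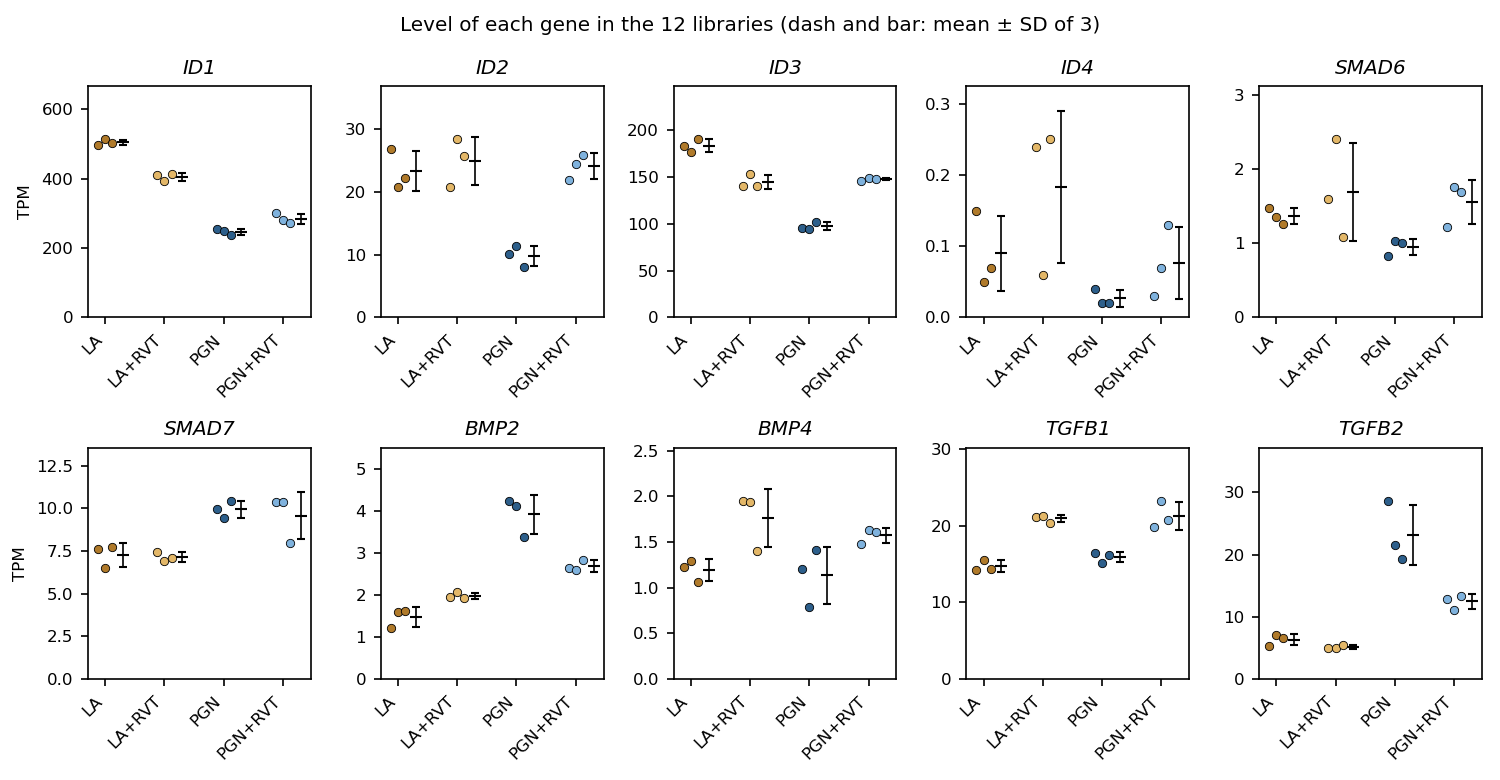
TPM of each of the 10 genes (vertical axis, from 0, own scale per panel) in the 3 libraries of each group (points), with the mean and SD beside them. ID3 lies lower with RVT under LA (140.2 to 154 against 176 to 190.3 TPM) and higher with RVT under PGN (146 to 149 against 94.7 to 102 TPM), and SMAD7 overlaps in both arms.

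Of the 9 genes tested in the LA arm, 1 was called higher and 2 lower, against 10.7% higher and 5.07% lower (15.7% in all) among all 15409 genes tested there. In the PGN arm 4 of 9 were called higher and 1 lower, against 10.6% and 4.92% (15.6% in all) of 14622 genes. The RVT and control libraries did not overlap for 5 of 9 genes under LA and 8 of 9 under PGN, against 36.2% and 36.1% of all genes. Nothing is read from these counts, since the genes were chosen with results known. The excess of higher calls among all genes depended on the scaling, with 1041 higher and 1080 lower under LA, and 850 and 1020 under PGN, once library medians were equalised. The median log2 fold change of the 9 genes was 0.092 under LA and 0.28 under PGN, beside 0.036 and 0.064 over all genes tested.

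The RVT effects in the 2 arms were compared by a difference of differences over the 12 libraries, PGN arm minus LA arm, which called 14.8% of 15177 genes, 7.73% higher and 7.03% lower. Of the 10 genes 9 were tested, and 3 were called higher and 1 lower. ID3 had the clearest difference of the 10 genes, 0.93 ± 0.064 on the log2 scale (limma adjusted p = 6.99e-06). ID2 differed by 1.13 ± 0.20 (adjusted p = 0.00314) and ID1 by 0.52 ± 0.058 (adjusted p = 0.000189). BMP2 differed in the other direction, by -0.68 ± 0.17 (adjusted p = 0.0182). TGFB1 had a difference of -0.093 (95% interval -0.30 to 0.11, adjusted p = 0.576). TGFB2 differed by -0.58 (-1.01 to -0.15, adjusted p = 0.0708), which was called without PGN replicate 3 (-0.69, adjusted p = 0.0341). The differences of SMAD7 (-0.037, interval -0.35 to 0.28), SMAD6 (0.22, -0.34 to 0.79) and BMP4 (-0.047, -0.52 to 0.43) were not called. ID1 and ID3 were each called lower under LA and higher under PGN, although the ID1 call under PGN held in only 5 of 13 alternatives. TGFB1 was called higher in both arms. Of the 14126 genes tested in both arms, 0.559% were called lower under LA and higher under PGN. In all, 1.31% were called in opposite directions and 3.45% in the same direction. Nothing is read from these shares, since the 10 genes were chosen with results known.

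**Figure D3:**
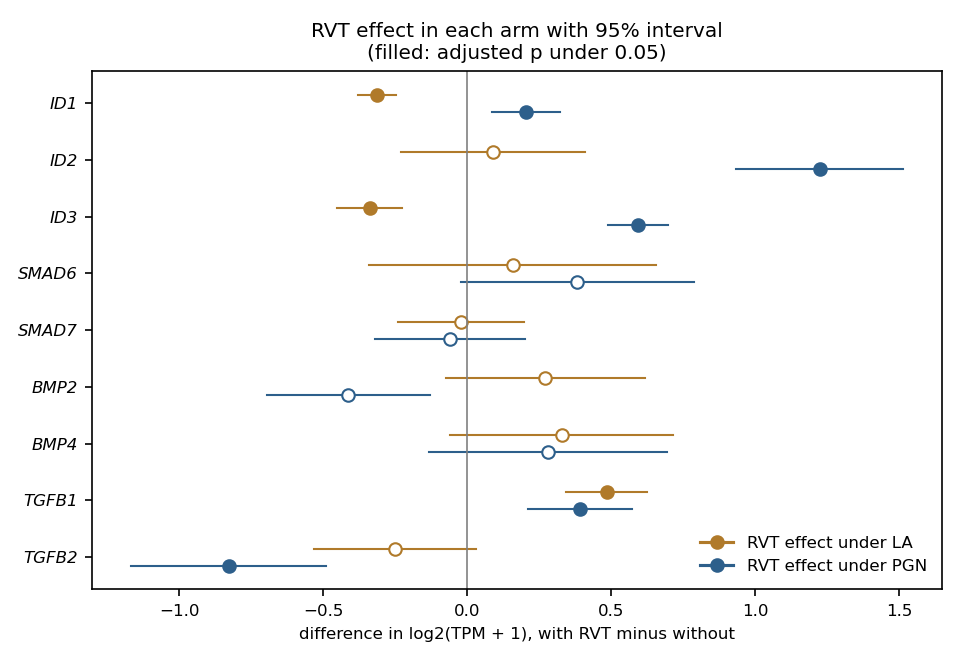
RVT effect on each tested gene (horizontal axis, difference in log2(TPM + 1) with RVT minus without; lines are 95% intervals; filled points have an adjusted p under 0.05) in the LA and PGN arms. ID1 and ID3 lie on opposite sides of 0 in the 2 arms, and TGFB1 lies above 0 in both.

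The rest of the circuit was described by lists of 103 other ligands, receptors, SMADs, antagonists, activators, inhibitors and target genes. Under LA 72 of them were tested, and 24 were called higher and 4 lower with RVT (33.3% and 5.56%, against 10.7% and 5.07% of all genes). Under PGN 71 were tested, and 7 were called higher and 21 lower (9.86% and 29.6%, against 10.6% and 4.92%). The median log2 fold changes were 0.093 and -0.042, beside 0.036 and 0.064 over all genes. With library medians equalised the counts were 19 higher and 4 lower under LA, and 2 higher and 21 lower under PGN. Nothing is read from these counts, since the lists were chosen with earlier results of these data known. In each arm 15 of the 28 calls held in all 6 fits that leave out 1 library. Where a call of a pathway gene named below was lost in some of these fits, their number is given. The counts per list below also include calls that were lost in some of these fits. The calls of the marker genes were not followed through these fits.

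Among the other ligand genes, 1 of 7 rose and 1 fell under LA, and 2 of 5 rose and 1 fell under PGN. INHBA, the subunit of activin A, fell from 39.0 ± 3.34 to 12.1 ± 0.471 TPM under PGN (log2 fold change -1.61 ± 0.078, limma adjusted p = 6.62e-05). GDF15, a stress-induced member of the superfamily, fell from 78.8 ± 6.82 to 57.0 ± 4.5 TPM under LA (limma adjusted p = 0.0110), and stood at 30.1 ± 0.976 and 37.5 ± 2.1 TPM under PGN (adjusted p = 0.0176, lost in 3 of 6 fits). Of the receptors and co-receptors, 2 of 13 rose and 1 fell under LA, and 1 rose and 1 fell under PGN. TGFBR2, the type II TGF-beta receptor, fell from 63.8 ± 2.74 to 46.0 ± 2.48 TPM under PGN (limma adjusted p = 0.00357). Under LA it stood at 29.02 ± 1.21 and 35.2 ± 1.89 TPM (adjusted p = 0.0237, lost in 4 of 6 fits). Of the receptor-regulated SMADs and SMAD4, 0 of 5 were called under LA and 2 fell under PGN. SMAD3, a carrier of TGF-beta signals, fell from 133 ± 2.97 to 83.8 ± 4.03 TPM (log2 fold change -0.66 ± 0.050, limma adjusted p = 0.000453), and SMAD1, a carrier of BMP signals, from 14.0 ± 1.14 to 10.03 ± 0.523 TPM (adjusted p = 0.0148, lost in 2 of 6 fits).

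Of the secreted antagonists, 5 of 6 tested rose and 0 fell under LA. NOG, which encodes the BMP-binding protein noggin, rose from 4.54 ± 0.261 to 11.8 ± 1.05 TPM (log2 fold change 1.203 ± 0.0915, limma adjusted p = 0.000669). FST, the activin-binding follistatin, rose from 11.9 ± 1.09 to 19.3 ± 1.44 TPM (adjusted p = 0.00480), and NBL1 and TWSG1, which also bind BMPs, by 0.33 and 0.28 on the log2 scale. Under PGN 1 of 7 antagonists rose and 1 fell, and NOG stood at 9.28 ± 0.807 TPM without RVT and 6.94 ± 0.271 TPM with it (adjusted p = 0.0327, lost in 5 of 6 fits). Of the genes for latency and activation of TGF-beta, 5 of 9 rose under LA and 3 of 8 fell under PGN. THBS1, encoding thrombospondin 1, which can free TGF-beta from its latent complex, rose from 155 ± 6.39 to 264 ± 18.0 TPM under LA (limma adjusted p = 0.000542) and fell from 742 ± 19.5 to 346 ± 14.7 TPM under PGN (log2 fold change -1.10 ± 0.042, adjusted p = 2.44e-05). ITGB8 and ITGB6 encode integrin subunits that activate TGF-beta: ITGB8 rose by 0.53 ± 0.058 under LA, and ITGB6 changed by -0.65 ± 0.064 under PGN, both on the log2 scale.

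Of the intracellular inhibitors, 5 of 11 rose and 0 fell under LA, and 1 of 12 rose and 4 fell under PGN. PMEPA1, a TGF-beta-induced inhibitor of SMAD activation, rose from 48.2 ± 0.395 to 60.9 ± 2.35 TPM under LA (limma adjusted p = 0.00332) and fell from 200.4 ± 18.2 to 116 ± 3.39 TPM under PGN (adjusted p = 0.000835). NEDD4L, a ubiquitin ligase for SMADs and receptors, rose from 109 ± 2.02 to 139 ± 7.34 TPM under LA and fell from 184 ± 15.8 to 129 ± 3.76 TPM under PGN (limma adjusted p = 0.00347 and 0.00370). TOB1, an antiproliferative protein that binds SMADs, rose under PGN from 19.4 ± 0.905 to 29.8 ± 2.99 TPM (adjusted p = 0.00506). Among the other TGF-beta target genes 3 of 12 rose and 2 fell under LA, and 1 rose and 7 fell under PGN. FN1, encoding fibronectin, rose from 473 ± 10.8 to 730.1 ± 15.5 TPM under LA (log2 fold change 0.63 ± 0.026, limma adjusted p = 8.05e-05) and fell from 841 ± 21.3 to 733 ± 8.42 TPM under PGN (adjusted p = 0.00788). SNAI2, a repressor active in epithelial-mesenchymal transition, fell from 5.35 ± 0.356 to 1.89 ± 0.114 TPM under PGN (adjusted p = 0.00121). The basement membrane collagen gene COL4A1 and the matrix gene TGFBI fell in both arms, COL4A1 by 0.35 under LA and 0.74 under PGN on the log2 scale.

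Of the other BMP target genes, 2 of 6 rose and 0 fell under LA, and 1 rose and 2 fell under PGN. GATA3, an epithelial transcription factor, rose from 18.1 ± 0.407 to 24.2 ± 0.786 TPM under LA (limma adjusted p = 0.00376). RUNX2, the osteoblast regulator, fell from 6.16 ± 0.683 to 2.98 ± 0.226 TPM under PGN (adjusted p = 0.00413). Of the E protein genes TCF3, TCF4 and TCF12, whose products ID proteins bind, TCF12 was called higher under LA (28.5 ± 1.38 and 35.9 ± 2.52 TPM, adjusted p = 0.0195, lost in 4 of 6 fits), and 0 of 3 were called under PGN. Of the 103 genes listed, 72 were tested under LA and 71 under PGN. Of these, 9 were called higher under LA and lower under PGN (INHBA, TGFBR2, NOG, ITGB8, THBS1, SMURF2, NEDD4L, PMEPA1 and FN1). GDF15 alone was called the opposite way. Of these 10 genes, 6 had a call in 1 arm that was lost in some of the 6 fits: INHBA (5 fits) and TGFBR2 (4) under LA, and ITGB8 (6), SMURF2 (6), NOG (5) and GDF15 (3) under PGN. Of all genes tested in both arms, 0.75% and 0.559% were called in these ways. Nothing is read from this, since the lists were chosen with results known.

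**Figure D4:**
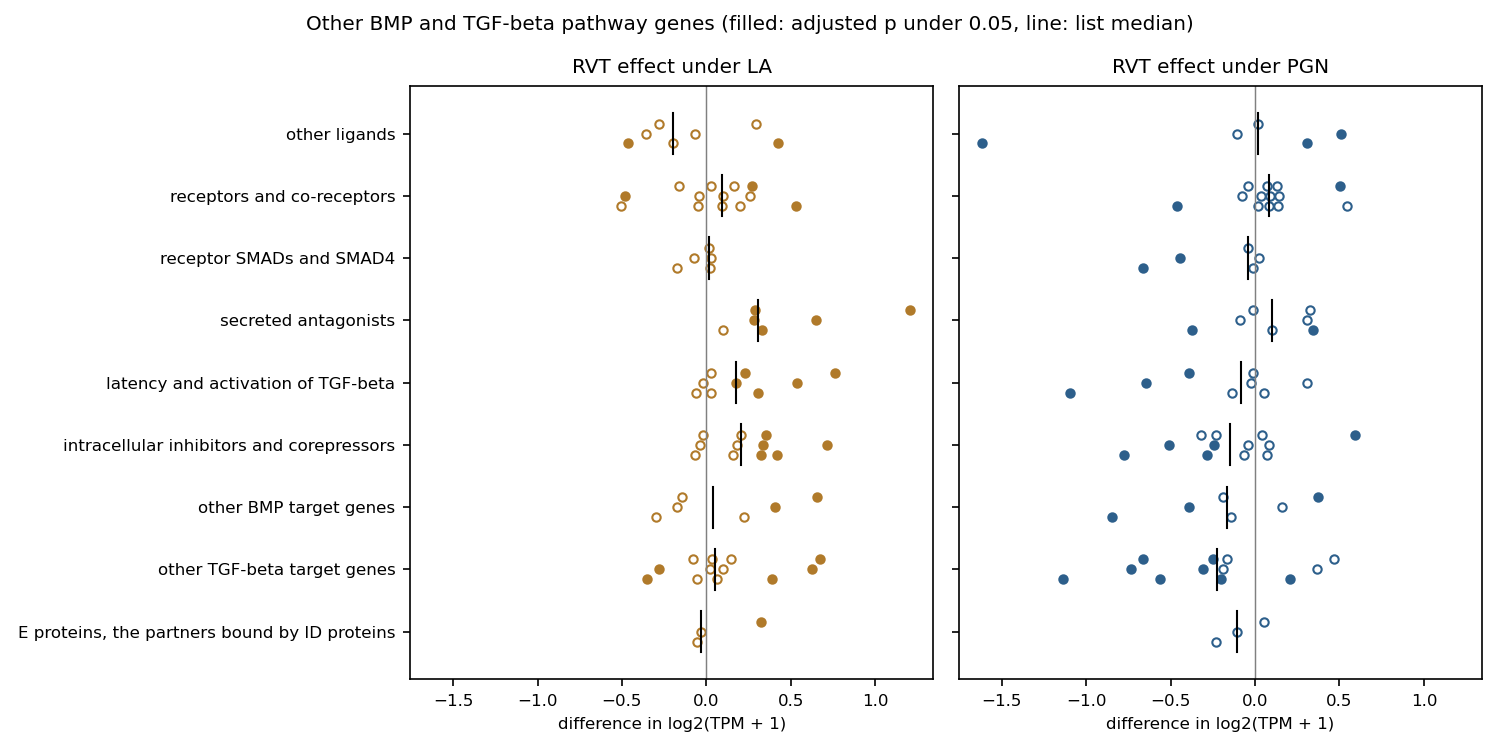
RVT effect (horizontal axis, difference in log2(TPM + 1)) on each tested gene of 9 other pathway lists (vertical axis) under LA and PGN; filled points have an adjusted p under 0.05 and black lines are list medians. Filled points lie mostly right of 0 under LA (24 of 28) and mostly left of 0 under PGN (21 of 28). The lists were chosen with earlier results of these data known.

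The genes most like a member over the 12 libraries were found by the Euclidean distance between log2(TPM + 1) values centred on the mean of each arm, among genes averaging 5 TPM or more in both tables. Nearest to ID1 were CD55, NMU and PLTP (distances 0.210, 0.222 and 0.223), among 10529 genes. Nearest to BMP2 were F2RL1, CAV2 and GCSH (0.244, 0.249 and 0.271). Nearest to SMAD7 were INPP1, HSPA14 and ABT1 (0.246, 0.248 and 0.250).

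Each library held 14489 to 15452 genes at 1 TPM or more. The epithelial keratin genes KRT18 and KRT7 stood above 1000 TPM in every group, and 10 of 12 listed sebocyte and epithelial markers averaged at least 1 TPM, with MC5R at 0 throughout. The 12 summed to 3337 to 3398 TPM with LA and 3893 to 3972 TPM with LA and RVT, without overlap, and to 4779.78 to 4916 and 4828 to 4867 TPM in the PGN arm, with overlap. KRT18 and KRT7 made up most of these sums. Of the 10 tested, 2 rose and 2 fell with RVT under LA, and 2 rose and 3 fell under PGN. The LA calls were KRT18 (0.31) and KRT7 (0.29), which rose, and KRT5 (-0.37) and MUC1 (-0.54), which fell, as log2 fold changes. The PGN calls were the lipid synthesis genes FASN (0.67) and SCD (0.46), and PPARG (-0.72) and PRDM1 (-0.85), regulators known in sebaceous cells, and KRT5 (-0.30), as log2 fold changes. TYR and DCN, defining markers of melanocytes and fibroblasts, were at 0 in all libraries, but others of these lists were present. In every group 2 of 6 melanocyte and 3 of 9 fibroblast markers averaged at least 1 TPM. MITF was called higher with RVT under LA (18.3 and 23.4 TPM) and PMEL under PGN (5.85 and 9.51 TPM). With LA, FBLN1 averaged 104 TPM, COL1A1 6.72 and THY1 5.74, and none of these fibroblast markers was called in either arm. Marker sums of other cell types moved with RVT in places. The 7 immune markers, of which CD68 made up most, summed to 48.0 to 51.7 TPM with LA, 54.9 to 58.4 with LA and RVT, 34.0 to 38.0 with PGN and 52.3 to 53.7 with PGN and RVT, with the pan-leukocyte gene PTPRC at 0.207 TPM or less on average. The 5 endothelial markers, nearly all CDH5, summed to 17.5 to 18.0, 7.24 to 8.11, 24.8 to 26.5 and 23.4 to 24.2 TPM in the same order. The 6 melanocyte markers summed to 25.1 to 26.0, 29.6 to 32.3, 19.4 to 24.4 and 29.8 to 31.1 TPM, and the 9 fibroblast markers to 112 to 122, 112 to 118, 77.1 to 94.1 and 95.9 to 98.4 TPM. Ribosomal protein genes made up 14.6% ± 0.278 of the TPM of LA libraries and 13% ± 0.137 once RVT was added, and 15.9% ± 0.147 and 15.1% ± 0.316 in the PGN arm. Mitochondrially encoded genes made up 14.0% ± 0.287 and 13.1% ± 0.171, and 11.5% ± 0.215 and 10.7% ± 0.518. With both gene classes removed and TPM rescaled, ID1 and ID3 were still called lower under LA and ID2 and ID3 higher under PGN, while ID1 under PGN was not called (log2 fold change 0.17, adjusted p = 0.0701). The part of the marker genes in the results was not tested.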

How the data were processed

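RNA from 12 libraries of SZ95 sebocytes was measured, and groups and replicate numbers were read from the sample titles. The authors deposited TPM rounded to 2 decimals in 2 tables, 1 per arm, with 60671 (LA) and 60666 (PGN) genes. The submitters' processing notes name RSEM 1.3.1, HISAT2 2.1.0, DESeq2 1.24.0 and the build GRCh38.p13 without saying what each did, and name no annotation release. Of the 60630 shared identifiers, 1432 carry different names in the 2 tables, so levels are not tested across tables. The deposited TPM columns sum to between 994373 and 997060 and hold no depth: a share can fall because others rise, and no counting interval can be given.

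Values were transformed as log2(TPM + 1), which understates changes of low genes. Genes averaging 1 TPM or more were fitted in R 4.3.3 by limma 3.58.1, two-sided, with a trended prior, with Benjamini-Hochberg adjustment over all genes and a threshold of 0.05. Each arm used its 6 libraries, and the difference of the arms' RVT effects all 12. The script was tested on simulated data. The 10 genes and the pathway and marker lists were chosen with earlier results of these data known. All 10 genes are named; of each other list, genes are named from the up to 4 with the smallest p per arm among those called, and those found different between arms appear in the closing section, except for a withheld item that is not reported here. Of the 151 listed symbols 151 were found. Alternatives were another pseudocount (0.1), other filters, equalised library medians, a robust prior, a replicate block and each library left out. Positions are from GENCODE 29 on GRCh38.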

Additional observations from a re-analysis of the deposited data

Results flagged for a closer look

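By limma's test of the difference itself, the RVT effect differed between the arms for 4 of the 9 member genes tested. ID1 (0.52), ID2 (1.13) and ID3 (0.93) were higher in the PGN arm relative to the LA arm, as differences in log2 fold change. BMP2 (-0.68) was lower. Of all 15177 genes tested, 14.8% were called, 7.73% higher and 7.03% lower. Nothing is read from this count, since the 10 genes were chosen with results known. The differences of ID1, ID2 and ID3 were called in each of 19 alternatives. That of BMP2 was lost without a filter (adjusted p = 0.0506) and with a replicate block (0.0637).

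Of the other pathway genes 24 of 72 tested had a lower and 5 a higher RVT effect under PGN than under LA, against 7.03% and 7.73% of all genes. These genes were taken by the test of the difference, after their values were seen. The lower ones among ligands, receptors and SMADs were INHBA (-2.04), TGFBR2 (-0.73), RGMB (-0.49) and SMAD3 (-0.59). Among antagonists and activators they were NOG (-1.57), FST (-0.66), THBS1 (-1.86), ITGB8 (-0.92) and ITGB6 (-0.59). Among intracellular inhibitors they were PMEPA1 (-1.11), NEDD4L (-0.86), TGIF2 (-0.67), SMURF2 (-0.66) and TGIF1 (-0.47). Among target genes they were SNAI2 (-1.16), MSX1 (-0.85), FN1 (-0.83), PDGFB (-0.71), RUNX2 (-0.55), COL4A1 (-0.38), CDKN1A (-0.31) and GATA3 (-0.24), and TCF12 (-0.56) was the E protein gene. The higher ones were GDF15 (0.77), NEO1 (0.67), RGMA (0.62), DLX3 (0.52) and TOB1 (0.39). Of these 29 differences 21 were called in all 12 fits that leave out 1 library. RGMA, RGMB, TGIF2, TOB1, DLX3, RUNX2, GATA3 and TCF12 were not.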

How the results depend on the processing

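No called difference of the 10 genes changed direction under any alternative. All 3 calls of the LA arm held throughout, whereas the 5 members called under PGN ranged from 3 to 5 over the fits that leave out 1 library, and the difference from 4 to 5. Without a filter, 1610 genes were called under LA and 1384 under PGN, and 2 pathway genes rose under PGN (3 in the difference, also 3 with a filter of 5 TPM). With library medians equalised 2 pathway genes rose under PGN, and 3 did without mitochondrial and ribosomal protein genes, an alternative added after seeing the data. Leaving out 1 library, calls ranged from 1428 to 1690 under LA, 1095 to 1861 under PGN and 1714 to 2250 for the difference. Pathway genes called higher then ranged from 13 to 18 under LA, 1 to 4 under PGN and 2 to 4 in the difference. Those called lower ranged from 3 to 4, 14 to 18 and 19 to 23 in the same order, beside 4, 21 and 24 in the main fits.

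Deviations of same-numbered libraries from their group means had correlations of -0.070 to -0.0068 under LA and 0.0081 to 0.041 under PGN. Under PGN each control library correlated best with the RVT library of its own number, though PGN+RVT 3 correlated best with PGN 1. Under LA no library correlated best with its own number. With 3 libraries per group these values cannot decide whether the numbers are a pairing. With a replicate block 1502 genes were called under LA, 1574 under PGN and 1730 for the difference, with 14, 2 and 2 pathway genes higher. In the same order 4, 17 and 20 pathway genes were lower. Among the 10 genes the block ended the calls of TGFB1 under PGN (adjusted p = 0.0513) and of BMP2 in the difference. The depth is unknown, which limits what can be said of ID4, SMAD6, BMP2 and BMP4, all near or under 1 to 4 TPM.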
